A study of Gallus gallus with 6 samples.

Results

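Activator protein 1 (AP-1) transcripts were measured by RNA-seq in lens fiber cells, the long transparent cells filled with crystallin proteins, from White Leghorn chick embryos at embryonic day 13. The family was taken as 10 gene symbols, FOS, FOSB, FOSL1, FOSL2, JUN, JUNB, JUND, ATF3, BATF3 and JDP2. Of these, 7 had a row among the 9107 rows of the deposited table. FOSL1, JUNB and BATF3 had no row and are not analysed here.

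The untreated group comprised 3 pools of fiber cells from lenses taken at 0 h. The hypoxia group comprised 3 pools from whole lenses kept for 8 h in 1% O2, in Medium 199 with 10% fetal bovine serum and antibiotics. Each pool held 10 to 15 lenses, whose fiber cells were microdissected away from the epithelium, and the labels describe each group as a biological triplicate. Lenses cultured for 8 h at normal oxygen are not among the libraries analysed here, so low oxygen, time in culture and contact with serum cannot be told apart.

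AP-1 proteins are basic leucine zipper (bZIP) factors that bind DNA only as pairs. FOS proteins do not pair with themselves and need a JUN partner, while JUN proteins can pair with each other, with FOS or with ATF proteins. The genes FOS and FOSB are textbook immediate early genes, switched on within minutes by serum, growth factors or stress. ATF3 and JDP2 are members that can repress the sites other pairs activate. JUN owes its name to a chicken sarcoma virus, and in the chick lens other bZIP proteins, those of the MAF group, drive crystallin genes.

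The reads on the tabulated genes came to between 23.5 M and 32.6 M a library, recovered from the steps in the rounded values. Levels are given as normalized counts, which are read counts divided by a size factor per library. Of 9105 rows tested, 55.1% differed between the groups, with 29.4% higher and 25.7% lower after 8 h (limma, Benjamini-Hochberg adjusted p under 0.05). The fiber cell label was checked on 21 markers: 20 had a row, and their summed normalized count was 18356861 to 20530318 in untreated and 15236621 to 16440939 in hypoxia pools, with 17 of the 20 lower. Markers of other cells mostly had no row. The sums over those present were 9112 to 12603 before and 9135 to 11274 after for lens epithelium (4 of 8 markers), 275 to 368 and 198 to 409 for red cells (2 of 11), 81 to 154 and 63 to 100 for leukocytes (1 of 13), and 378 to 442 and 413 to 486 for retina or neurons (2 of 9). The mesenchyme or ciliary margin sum was lower after 8 h, 1146 to 1687 against 585 to 724 (4 of 12). Of those 4 markers 2 were lower and 1 was higher. The endothelium sum was lower as well, 156 to 179 against 22 to 65 (1 of 8, PECAM1). Of the 4 epithelial markers 1 was higher and 1 was lower, so their similar sums do not mean that each was unchanged. GJA1 made up most of the untreated epithelial sum, at 8583, 5463 and 5218. It stood at 5525, 5232 and 4033 after 8 h and did not pass (limma, adjusted p = 0.171). Of the 2 retina or neuron markers 1 was higher. Among these markers of other cells, 0 with a row were at 0 throughout a group. The part of these cells in the AP-1 values was not tested. In such bulk samples fewer cells of a type and less RNA per cell cannot be told apart.

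All 7 measured AP-1 genes were higher after 8 h, against 29.4% of all rows, and 0 were lower. In each of the 7 the lowest hypoxia pool lay above the highest untreated pool, which was so for 32.6% of all rows. Members with a low starting level rose more, although this link was not tested and the cut-offs used here are descriptive. The table holds few low rows: of the 9105 tested, 9058 had a mean of at least 20 over all libraries. A gene near 0 in untreated pools can reach such a mean only through its hypoxia values, as FOSB and FOSL2 did. The link thus depends in part on which genes have a row. FOS, FOSB, FOSL2, ATF3 and JDP2 had untreated means under 40 normalized counts and rose at least 8-fold. A rise of at least 8-fold that passed was seen in 106 of the 9105 rows, counted at any starting level. JDP2 lay at that limit, with a log2 fold change of 3.01. It fell below 8-fold with 5 added before taking logs (2.87) and without untreated pool 3 (2.81). JUN and JUND, above 1000 at the start, rose less than 2-fold. With scaling by library totals JUN rose slightly more than 2-fold (log2 fold change 1.03).

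**Figure D1:**
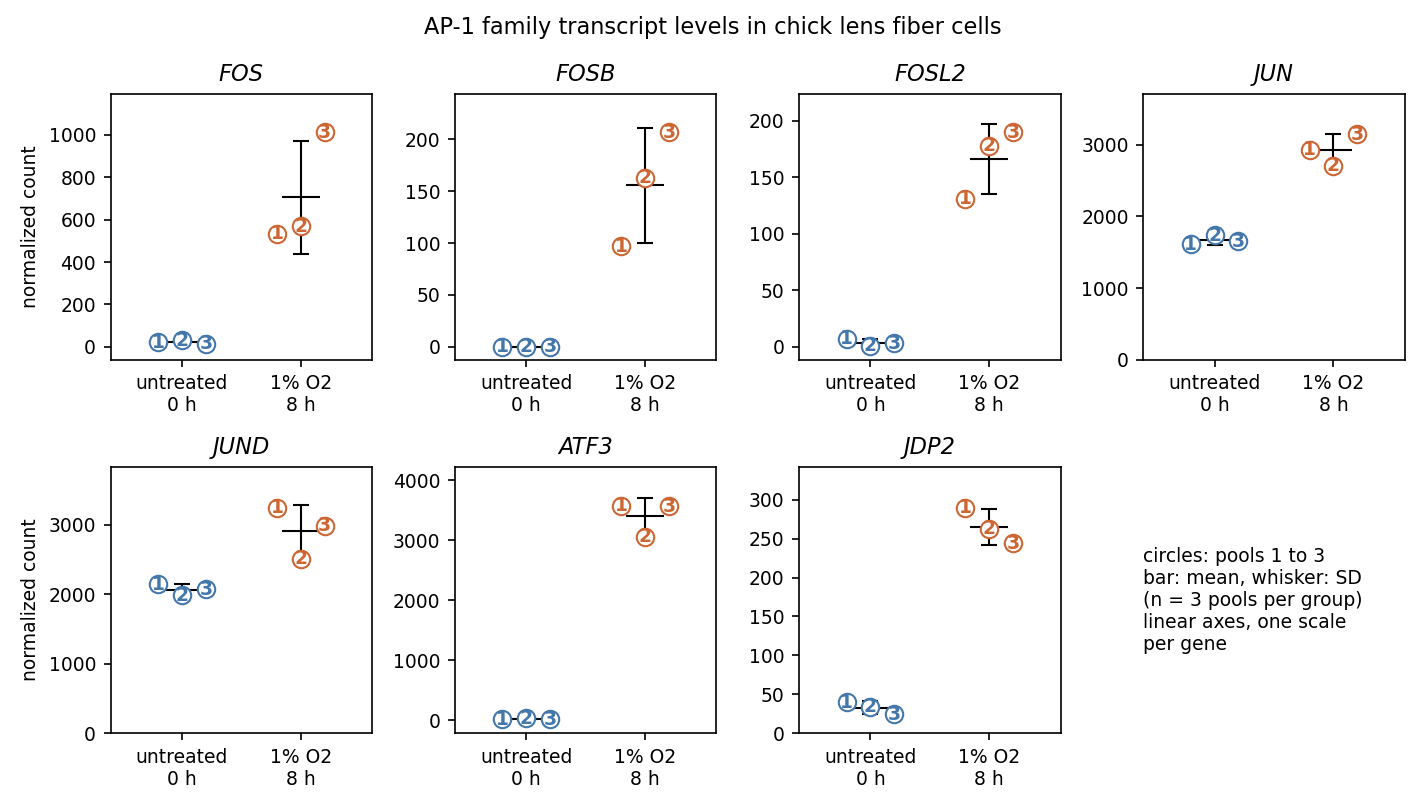
Normalized counts (y axis, linear, a scale for each gene) of the 7 AP-1 genes in 3 untreated pools at 0 h and 3 pools after 8 h in 1% O2. Numbered circles are pools, bars are means and whiskers SD. In every panel the hypoxia pools lie above the untreated pools, from 0 against 97 to 207 for FOSB to 1984 to 2139 against 2507 to 3244 for JUND.

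Among the FOS proteins, FOS is the founding member and a dimer partner of JUN. It stood at 22, 30 and 15 normalized counts in untreated pools 1 to 3 and at 533, 570 and 1013 in hypoxia pools 1 to 3. The groups did not overlap, and hypoxia pool 3 lay well above the other hypoxia pools. The mean went from 22.3 ± 7.5 to 705 ± 267 (SD, n = 3), a log2 fold change of 4.91 ± 0.30 (SE) on the log2(value + 1) scale used throughout (limma, adjusted p = 1.44e-06). Without hypoxia pool 3 it was 4.62.

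FOSB, a close relative of FOS that also gives a shortened form known from mammalian neurons, was listed at 0 in all 3 untreated pools and at 97, 163 and 207 after 8 h (156 ± 55.4, SD, n = 3). The recovered reads were 0 in the untreated and 546 in the hypoxia libraries. Against a floor of 3 reads over the untreated group, and corrected for the size factors, the ratio of reads was 130.7. That ratio was not tested and leaves out counting error and the spread between pools. The limma test was on log2(value + 1) (adjusted p = 5.62e-07), and the size of its fold change depends on the constant added. The log2 value was 7.22 with 1 added, 4.94 with 5 and 8.22 with 0.5.

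FOSL2, which encodes FRA2, a FOS protein without the strong activation domain of FOS, stood at 7, 1 and 3 in untreated pools and at 131, 178 and 190 after 8 h. The untreated values are close to the counting limit, with 9 reads in all against 586 after 8 h. Corrected for the size factors the ratio of reads was 46.8, with an exact (Clopper-Pearson) 95% interval of 24.5 to 103 that covers counting error only. The log2 fold change was 5.37 ± 0.48 (limma, adjusted p = 4.78e-06), and it was 4.35 when 5 in place of 1 was added before taking logs.

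JUN, a partner of FOS proteins, stood at 1614, 1735 and 1650 normalized counts in untreated pools and at 2928, 2707 and 3149 after 8 h. Its pools were tight in both groups, with coefficients of variation of 3.73% and 7.55%. The log2 fold change was 0.81 ± 0.09, with a 95% interval of 0.61 to 1.01 (limma, adjusted p = 2.29e-05), which ranked JUN 1283 of 9105 rows.

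JUND, the JUN protein that is present in most resting cells and restrains growth in mouse fibroblasts, stood at 2139, 1984 and 2072 in untreated and at 3244, 2507 and 2981 in hypoxia pools. It had the smallest rise of the family, a log2 fold change of 0.49 ± 0.10 with a 95% interval of 0.26 to 0.72 (limma, adjusted p = 0.00228). The value nearest to the untreated pools came from hypoxia pool 2.

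ATF3, a stress-induced factor that in mammals represses as a pair with itself and lies downstream of the amino acid response factor ATF4, stood at 21, 35 and 21 in untreated pools and at 3575, 3053 and 3564 after 8 h. The hypoxia pools lay close together, with a coefficient of variation of 8.78%, against 37.9% for FOS and 35.6% for FOSB. The log2 fold change was 7.03 ± 0.19 (limma, adjusted p = 3.41e-09), and 67 reads in the untreated group stood against 11918 after 8 h.

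JDP2, which binds JUN and represses AP-1 sites, stood at 40, 34 and 24 in untreated pools and at 290, 263 and 244 after 8 h. No value of one group came near those of the other. The log2 fold change was 3.01 ± 0.21 (limma, adjusted p = 6.38e-07). The authors' deposited table, whose fold changes are shrunken, lists log2 values of 4.62 for FOS, 5.43 for FOSB, 4.58 for FOSL2, 0.81 for JUN, 0.50 for JUND, 6.76 for ATF3 and 2.87 for JDP2.

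**Figure D2:**
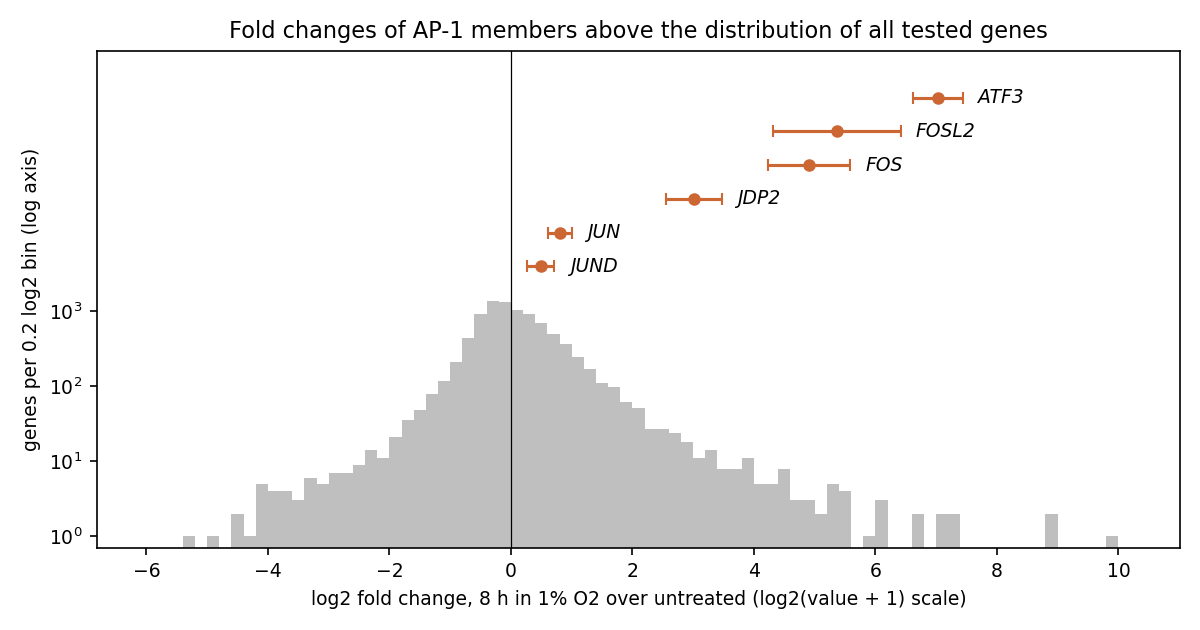
Log2 fold change of 8 h in 1% O2 over untreated (x axis) as a histogram of the tested genes (y axis, genes per bin, log scale), leaving out 9 genes listed at 0 in a whole group, FOSB among them. Circles with 95% intervals are the other AP-1 genes, whose height on the plot has no meaning. JUND (0.49) and JUN (0.81) lie on the shoulder of the distribution, and JDP2 (3.01), FOS (4.91), FOSL2 (5.37) and ATF3 (7.03) in its far right tail.

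Because the members rose by unequal amounts, the make-up of the family's transcripts changed. The share of each gene in the summed AP-1 counts of a library does not depend on how libraries are scaled, although it is not corrected for transcript length, so a share is compared only with that of the same gene. JUN and JUND together took 97.7%, 97.4% and 98.3% of the family's counts in untreated pools and 57.2%, 55.2% and 54.0% after 8 h. The share of ATF3 went from 0.673% ± 0.211 to 32.3% ± 0.9 (SD, n = 3), and that of FOS from 0.585% ± 0.195 to 6.63% ± 2.06. The share of JDP2 was 0.855% ± 0.206 and then 2.54% ± 0.34. The family's summed normalized count went from 3816 ± 29.1 to 10529 ± 982.

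**Figure D3:**
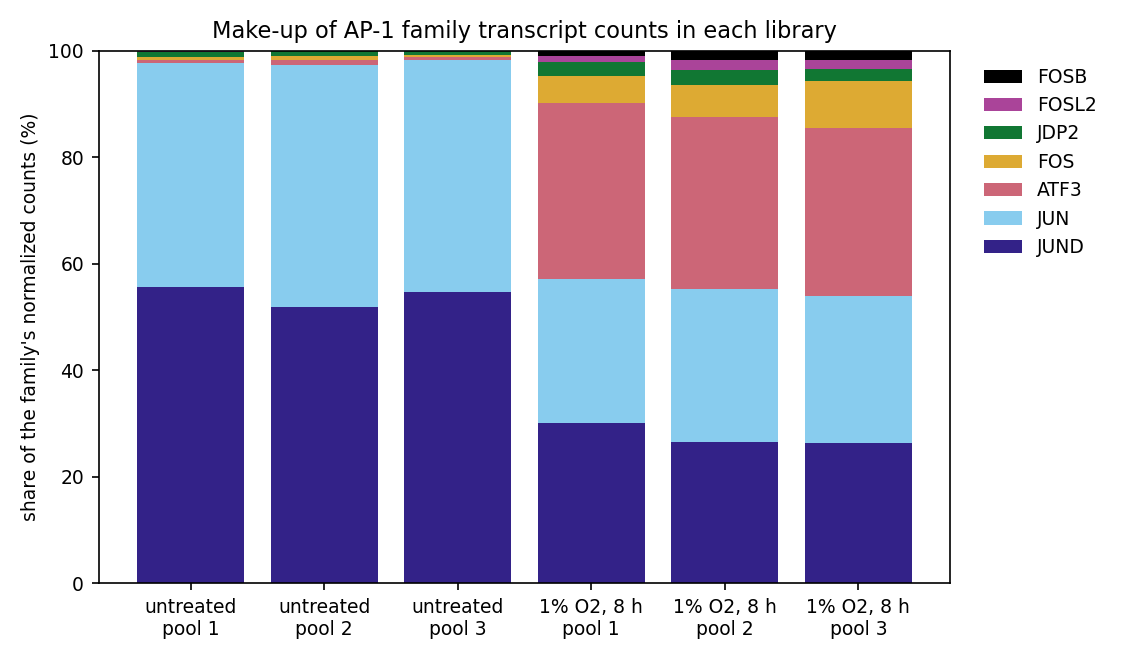
Share of each AP-1 gene in the family's summed normalized counts (y axis, percent) in each of the 6 libraries, as stacked bars, not corrected for transcript length. JUN and JUND fill 97.4% to 98.3% of the untreated bars and 54.0% to 57.2% of the hypoxia bars, where ATF3 takes 31.4% to 33.1%.

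Ratios between members within a library were compared for the 15 pairs that leave FOSB aside. In 13 pairs the ratios of the hypoxia pools did not overlap those of the untreated pools. Each had p = 0.1 by a two-sided exact permutation test (adjusted p = 0.115 over the 15 pairs). An unadjusted p of 0.1 is the smallest that 3 against 3 pools allow, so no pair could have passed. Each shift is the difference between the log2 fold changes of its genes. The pairs are therefore not independent and add no evidence beyond those fold changes. How often pairs of other genes overlap was not tested. The largest shifts were those of the JUN proteins against ATF3. On the log2 scale JUN over ATF3 moved from 6.01 ± 0.36 to -0.21 ± 0.06 and JUND over ATF3 from 6.32 ± 0.46 to -0.23 ± 0.08 (SD, n = 3). FOS over JUN moved from -6.21 ± 0.45 to -2.11 ± 0.43, and JUN over JUND only from -0.31 ± 0.11 to 0.01 ± 0.14. FOS over ATF3 moved down, from -0.20 ± 0.26 to -2.33 ± 0.47. FOS over FOSL2 (p = 0.9) and FOSL2 over ATF3 (p = 0.2, both exact permutation tests) overlapped between the groups.

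By gene order in the RefSeq annotation of assembly GRCg7b, which is not the submitters' build and is used for order only, FOS, JDP2 and BATF are consecutive protein-coding genes on chromosome 5. BATF, a bZIP partner of JUN without an activation domain of its own, stood at 2, 6 and 5 in untreated pools and at 121, 55 and 66 after 8 h. Like JDP2 beside it and FOS beyond JDP2, it was higher (log2 fold change 3.94 ± 0.47, limma, adjusted p = 3.98e-05). The next genes on the FOS side were not: TMED10 had a log2 fold change of 0.12 (limma, adjusted p = 0.247) and NEK9 was lower (-0.32, adjusted p = 0.0155). On the BATF side the next gene, FLVCR2, had no row. The 3 nearest protein-coding genes on each side of the 6 members in that annotation came to 29 genes outside the family. Of these, 17 had a row, of which 8 were higher (47.1%, against 29.4% of all rows), 3 were lower and 6 did not pass.

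The genes whose 6 values lay nearest to those of FOSB, by Euclidean distance on the log2(value + 1) scale, were KCNF1, a potassium channel subunit (distance 1.07), PIK3R5, a regulatory subunit of PI3-kinase (1.32), and KLF5, a zinc finger factor (1.56). KCNF1 and KLF5 were listed at 0 in all untreated pools, and after 8 h stood at 187, 166 and 144 and at 75, 86 and 89. Nearest to ATF3 were SESN2, a stress-induced inhibitor of mTORC1 (0.760), ACTA1, skeletal muscle actin (2.31), and DDIT3, the stress factor CHOP (2.45). SESN2 stood at 26, 32 and 23 before and at 4984, 4197 and 3909 after 8 h, close to ATF3 in each group. ACTA1 was less even, at 3505 in hypoxia pool 1 and at 1262 and 1254 in pools 2 and 3.

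Of 41 other bZIP gene symbols sought, 28 had a row. Among these, 20 rose (71.4%, against 29.4% of all rows), 1 fell and 7 did not pass. The median log2 fold change of the 28 was 0.82, against -0.01 for all rows. MAFF, a small MAF protein without an activation domain, went from 149 ± 5 to 924 ± 58 (log2 fold change 2.63 ± 0.10), and XBP1, a factor of the unfolded protein response, from 857 ± 108 to 3144 ± 228 (1.88 ± 0.11). ATF4 went from 3026 ± 198 to 9018 ± 494 (1.58 ± 0.09) and DDIT3 from 58.3 ± 18.8 to 2356 ± 551 (5.33 ± 0.23). These 4 had limma adjusted p-values of at most 5.86e-07. MAFA, the lens MAF protein of the chick, named after its values were seen, stood at 5699, 6021 and 5734 before and at 5435, 5391 and 4576 after (-0.18 ± 0.10, limma, adjusted p = 0.123, and 0.03 with scaling by library totals). TEF was lower (-0.78 ± 0.22, limma, adjusted p = 0.0146), a call lost without hypoxia pool 3 (-0.72, adjusted p = 0.0589).

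Of 49 symbols sought for kinases and serum response factors upstream of AP-1, 34 had a row. Of these, 12 were higher, 2 were lower and 20 did not pass, with a median of 0.23. The share of higher genes was 35.3%, against 29.4% of all rows. With scaling by library totals those shares were 61.8% and 40.1%. SRF, the serum response factor that binds the FOS promoter, went from 440 ± 49 to 1686 ± 265 (1.93 ± 0.12). MAP3K5, the stress kinase ASK1, rose by 1.62 ± 0.11, MAP3K14 by 1.34 ± 0.10 and the transcription factor gene MEF2A by 1.24 ± 0.12 on the log2 scale. None of the 7 MAP kinase genes measured passed in limma, also 0 at an unadjusted p under 0.05, with a log2 fold change of 0.23 ± 0.11 for MAPK8, which encodes the JUN kinase JNK1, 0.21 ± 0.13 for MAPK14 and 0.07 ± 0.10 for MAPK3, but with scaling by library totals 5 of the 7 were higher, these among them (0.45, 0.43 and 0.29). They were named after their values were seen. MAP2K6 (-0.89 ± 0.20) and MRTFA, an SRF coactivator (-0.35 ± 0.11, limma, adjusted p = 0.0207), were lower. The MRTFA call was lost without untreated pool 1 (-0.35), untreated pool 2 (-0.32) or hypoxia pool 3 (-0.27).

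Of 23 symbols sought for inhibitors of MAP kinase signalling, 17 had a row. Of these, 13 were higher (76.5%, against 29.4% of all rows) and 1 was lower, with a median of 1.14. Of the 13, SPRY2 (limma, adjusted p = 0.0489) kept its call in only 9 of 17 alternative settings. DUSP1, a phosphatase that switches off JNK and p38 and is itself an immediate early gene, went from 172 ± 13 to 733 ± 70 (2.09 ± 0.12). DUSP10, another JNK and p38 phosphatase, rose by 1.56 ± 0.11, ERRFI1, an inhibitor of the EGF receptor, by 1.58 ± 0.12 and the pseudokinase gene TRIB2 by 1.63 ± 0.09. SPRED1 was lower (-0.38 ± 0.13, limma, adjusted p = 0.0256), a call lost without untreated pool 2 (-0.28), untreated pool 3 (-0.41) or hypoxia pool 3 (-0.30). Of 22 symbols sought for proteins that modify or degrade AP-1, 19 had a row. Among these, 11 were higher (57.9%, against 29.4% of all rows) and 2 lower, with a median of 0.40. Members with small p were the corepressor gene NCOR1 (1.03 ± 0.11), the SUMO protease gene SENP1 (1.27 ± 0.14) and SMARCD1, a chromatin remodelling subunit (0.64 ± 0.11). COPS5, named JAB1 as a JUN coactivator, was lower (-0.40 ± 0.08), as was DDB1 (-0.28 ± 0.08, a call lost without untreated pool 3, -0.25).

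Textbook AP-1 targets moved both ways. Of 56 symbols sought, 26 had a row, which gave 27 rows. Of the 27, 11 rose (40.7%, against 29.4% of all rows), 4 fell (14.8%, against 25.7%) and 12 did not pass. Their median was 0.38. CCND1, a cyclin of the G1 phase, went from 386 ± 66 to 840.0 ± 25.6 (1.14 ± 0.13), AREG, an EGF receptor ligand, from 9.3 ± 4.0 to 167 ± 68 (3.99 ± 0.39) and GCLC, the rate-limiting enzyme of glutathione synthesis, from 557 ± 47 to 1067 ± 12 (0.94 ± 0.09). The rows of LMNA, the lamin A gene, rose by 1.55 ± 0.14 and 0.46 ± 0.12. PLAU, the urokinase gene with a classic AP-1 enhancer in humans, fell from 1355, 2156 and 828 to 86, 198 and 113 (-3.42 ± 0.45, limma, adjusted p = 0.0014). UPP1, uridine phosphorylase (1929 ± 130 to 970.0 ± 151.6), TNC, the matrix protein tenascin C (-0.98 ± 0.15), and ANXA1 (-0.89 ± 0.21) were lower too, ANXA1 not without hypoxia pool 2 (-0.83, adjusted p = 0.0525).

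Of 42 other immediate early gene symbols sought, 32 had a row. Among these, 24 rose (75.0%, against 29.4% of all rows), 2 fell and 6 did not pass. EGR2, EGR3 and KLF5, at 0 or 1 in untreated pools, have their counts almost only from hypoxia pools. The share that rose thus depends in part on which genes have a row. The median log2 fold change of the 32 was 1.89. EGR3 and KLF5, listed at 0 in untreated pools, lie far above that median, which is the same with them at a floor of 3 reads. The members with the smallest p were GADD45B (381 ± 13 to 4361 ± 587), EGR2 (0.333 ± 0.577 to 620 ± 189), PLK3, a stress-response kinase (363 ± 22 to 1728 ± 181), and KLF6, a zinc finger factor (719 ± 108 to 3858 ± 321). ID2 (-0.59 ± 0.13) and MYCN (-0.39 ± 0.14) were lower, and the MYCN call was lost without untreated pool 1 (-0.27) or hypoxia pools 2 (-0.36) or 3 (-0.30). With scaling by library totals, which moved the median of all genes up by 0.216 on the log2 scale, PLAU, UPP1, TNC, ANXA1 and MAP2K6 were still lower, while TEF, MRTFA, SPRED1, COPS5, DDB1, ID2 and MYCN no longer passed.

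**Figure D4:**
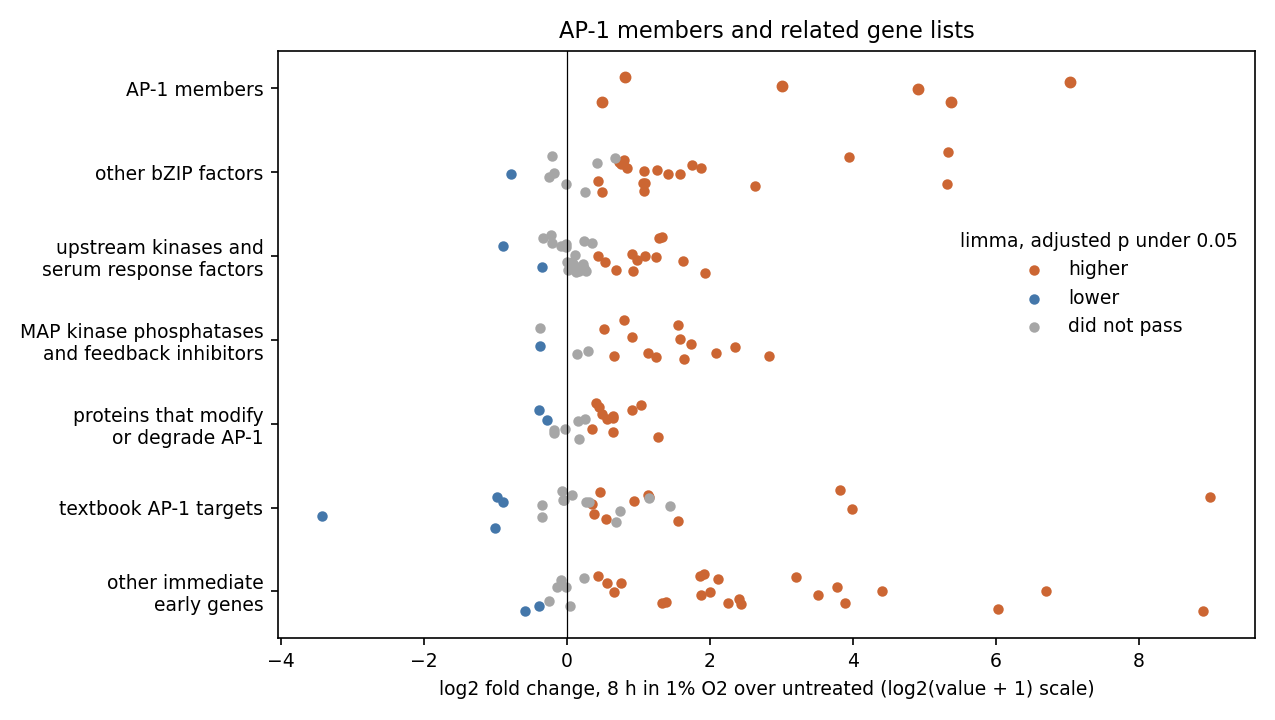
Log2 fold change of 8 h in 1% O2 over untreated (x axis) for 6 AP-1 genes and for the genes of 6 related lists, each circle a gene row, coloured by whether it was higher, lower or did not pass (limma, adjusted p under 0.05). FOSB, EGR3 and KLF5, listed at 0 in untreated pools, are not drawn. The AP-1 genes range from 0.49 to 7.03, and the list medians run from 0.23 for upstream kinases to 1.89 for other immediate early genes.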

How the data were processed

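The deposited table gives a score per gene and library, which the values show to be read counts divided by a size factor and rounded to whole numbers. Per the file headers it further holds the authors' log2 fold change, shrunken, and their adjusted p-value. Per the submitters' processing notes the build was galGal6 and the tools included STAR, DESeq2 and edgeR, while for counting, annotation and strand use the sources used here give nothing, so overlapping or antisense genes are uncertain. Libraries came from a stranded mRNA kit, per the labels' protocols.

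The row of METTL16, with 1 value that is no whole number, was dropped. The test was limma 3.58.1 in R 4.3.3 on log2(value + 1) (group as the only term, mean-variance trend, robust moderation) on rows with a mean of at least 1, and the count test foreseen for raw counts was not run, since these are not raw counts. The fit was tested on simulated counts in which far fewer rows changed than were called here, none of them with a low untreated mean. That test thus does not cover genes such as FOSB and FOSL2. Size factors, 0.744 to 0.937 for untreated and 1.09 to 1.27 for hypoxia libraries, were recovered from the steps between rounded values. Pools are the replicates, and the limma p-values set the group difference against the spread between pools, moderated across genes.

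All AP-1 genes with a row are named, with the 4 genes of smallest p in each related list, any 5 or fewer members moving against a list, and the 3 nearest profiles of FOSB and ATF3. A gene that the rule would name is not reported here. The members and lists were chosen with earlier results of these data known. The RefSeq table matched 6 of the 7 members. FOSB had no protein-coding entry there under that symbol, so its gene model was not checked and its neighbours are not given. The planned protein and promoter sequence comparison was not made. Value columns of unknown samples numbered 0.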

Additional observations from a re-analysis of the deposited data

How the results depend on the processing

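All 7 AP-1 genes stayed higher under each of 17 alternatives (pseudocount, low-value filter, scaling, moderation, weights, replicate block, leaving out each pool) and in the authors' deposited table. With pools left out in turn, the AP-1 genes higher numbered 7 and lower 0 throughout, and JUND had the largest adjusted p (limma, 0.0129, without untreated pool 2). Of the ratios, FOS over FOSL2 changed sign, from -0.46 to 0.33 with 5 added before taking logs, and ranged from -0.94 to 0.27 with pools left out. Scaling by library totals took the count of genes lower from 2336 to 976, other bZIP genes lower to 0, upstream genes to 21 higher and 1 lower, and the lower MAP kinase inhibitors, AP-1 modifiers and immediate early genes to 0 each. Totals without crystallins left 1 lower upstream gene, 0 inhibitors, 1 modifier and 1 immediate early gene. Without trend and robust moderation 1 immediate early gene was lower. The causes were not tested. Scaling by totals made 78.9% of calls higher, against 53.4%. Some rises in the lists were unstable as well. Of 17 alternatives, SPRY2 stayed higher in 9, NFKBIA in 12, EZR in 13, CREBBP and PLK2 in 15, and ITCH and ITGB1 in 16. NR4A2 stayed higher in 15 of 16. These genes were named after their values were seen. With pools left out, lower genes ranged from 1716 to 2249, other bZIP genes from 0 to 1, upstream genes from 1 to 3, inhibitors from 0 to 1, modifiers from 1 to 2 and immediate early genes from 1 to 2. The deviations of pools 1, 2 and 3 correlated at 0.117, 0.108 and 0.013 with those of the pool of the same number. The highest correlations with another number were -0.059, 0.059 and 0.026. Pools 1 and 2 thus exceeded these values and pool 3 did not. The numbers were not taken as pairs in the main fit, although this check does not settle the pairing. With the replicate block 2786 genes were higher and 2527 lower, and the AP-1 calls were unchanged at 7. At this depth the untreated levels of FOSB and FOSL2 are limited by counting.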

Other observations

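HMOX1, the heme oxygenase gene and a textbook AP-1 target, stood at 57, 45 and 12 in untreated pools and at 18, 24 and 788 in hypoxia pools 1 to 3, and it did not pass (limma, adjusted p = 0.601). DUSP5 and DUSP4, phosphatases of ERK, stood at 210, 162 and 326 and at 100, 80 and 204 in those pools, highest in hypoxia pool 3, where FOS and FOSB were highest as well. Other inhibitors of MAP kinase signalling were highest in hypoxia pool 1, among them DUSP6 (203, 115 and 177) and DUSP7 (132, 117 and 117). SPRY1 (193, 141 and 148) and SPRY2 (384, 205 and 240) were so too. All these genes were chosen for naming after their values were seen, and what sets hypoxia pool 3 apart was not tested.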
